A study of Mus musculus with 2 samples.

Results

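The Itgbl1 Wnt4 Tgfbi cells of mouse subcutaneous fat are a small group of Pdgfra-positive stromal cells picked out by 4 genes, Itgbl1, Fbn2, Wnt4 and Tgfbi. They numbered 200 of the 2483 cells with a Pdgfra transcript in the series, 69 of 1136 in the WT library and 131 of 1347 in the Paqr4 transgenic library. Each cell received 6 scores, and each score was the mean of 4 marker genes after every gene had been standardised over all 2483 cells. A cell was counted here when its score for Itgbl1, Fbn2, Wnt4 and Tgfbi was its highest and reached 0.5. Measured expression of 24 marker genes therefore chose the cells, so levels of those genes and every contrast between these cells and the rest are descriptions and were not tested.

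The study asked how PAQR4 affects the pool of adipose progenitors. Cells negative for the blood cell antigen CD45 were sorted from the stromal vascular fraction, the cells of fat left after adipocytes are removed, and were read as droplet single-cell RNA libraries. One group was WT and the other carried a Paqr4 transgene, and the sources used here do not name the promoter that drives the transgene. Cells of 3 mice were pooled, without a statement of whether this was per genotype, and each genotype had 1 library. Neither age nor strain is named in the labels.

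Wnt4 encodes a secreted Wnt ligand. Wnt ligands bind Frizzled receptors together with co-receptors such as Lrp or Ror proteins, and active Wnt signalling is known to restrain adipocyte formation. Tgfbi encodes a secreted matrix protein that TGF-beta induces and that binds collagen and integrins, Fbn2 encodes fibrillin-2 of the microfibrils that carry elastin and hold latent TGF-beta, and Itgbl1 encodes a secreted protein with repeats like those of the integrin beta stalk.

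Levels are given as UPM, the share of a gene among all unique molecular identifiers (UMIs, counted transcripts) of the cells summed, times 1e+06. The 69 WT cells held 1359756 UMIs and the 131 transgenic cells 2125412, with medians of 19814 and 16153 UMIs per cell. Over all cells with a Pdgfra transcript the medians were 22851.5 and 19562, and the 2 libraries shared 0 barcodes among them. Intervals are exact at 95% (Poisson for levels, conditional binomial for ratios, Clopper-Pearson for shares) and cover counting error only, leaving out how cells and mice vary. With 1 library per genotype no difference between genotypes could be tested. Xist, made by the inactive X chromosome, stood at 1008 UPM in WT and 0 UMIs in transgenic Itgbl1 Wnt4 Tgfbi cells, while the Y-linked Uty stood at 0 UMIs and 122 UPM, so genotype and sex cannot be told apart. Haemoglobin transcripts took 28.2% of all WT and 29.1% of all transgenic UMIs, and barcodes of 1 to 50 UMIs were used below to show RNA free in the suspension.

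Of the genes behind the score, Itgbl1 (ENSMUSG00000032925) lies at chr14:123659971-123975618, Wnt4 (ENSMUSG00000036856) at chr4:137277489-137299726 and Tgfbi (ENSMUSG00000035493) at chr13:56609523-56639562, all on the plus strand of GRCm38 in GENCODE M21. The 80 bases just before each gene's outermost start are shown because these genes are markers of the same score. The bases come from RefSeq promoter windows (GRCm38.p6) at chr14:123659891-123659970, chr4:137277409-137277488 and chr13:56609443-56609522. Capitals mark matches to 3 motifs, searched on both strands. The first was the core of the GC box, which reads GGGCGG. The second was an element for the start of transcription at some genes, which reads TATAAA. The last was a short element bound by Smad proteins, which reads CAGAC.
Itgbl1: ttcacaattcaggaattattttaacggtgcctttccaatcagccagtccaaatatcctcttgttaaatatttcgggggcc
Wnt4: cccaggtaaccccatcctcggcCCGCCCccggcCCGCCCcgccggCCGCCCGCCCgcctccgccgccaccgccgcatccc
Tgfbi: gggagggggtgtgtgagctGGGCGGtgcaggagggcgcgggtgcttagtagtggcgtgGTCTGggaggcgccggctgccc
The Wnt4 window was 86.2% GC with 13 CpG dinucleotides and 4 GC-box cores, some of which overlap, and 98.8% of the 14651 windows cut the same way were lower in GC. The Tgfbi window was 73.8% GC with 6 CpG, 1 GC-box core and 1 Smad element. The Itgbl1 window was 40% GC with 2 CpG and held none of the 3 motifs, and 5.87% of windows were lower in GC. The GC-box core was found in 30.1% of all windows, the start element in 4.82% and the Smad element in 14.6%, and the median window was 58.8% GC. The Wnt4 and Tgfbi windows thus shared the GC-box core and were rich in GC, unlike the Itgbl1 window, which says nothing about the factors that bind there.

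The 4 marker genes stood far above the other cells, as the rule required, but few cells showed them together. Itgbl1 stood at 297 UPM (WT, 269 to 328) and 402 UPM (transgenic, 375 to 429.7) in Itgbl1 Wnt4 Tgfbi cells, against 2.73 and 13.4 UPM in all other Pdgfra-positive cells. Tgfbi stood at 285 (257 to 314) and 209 UPM (189.9 to 229) against 20.1 and 13.2. Fbn2 stood at 149 (129 to 171) and 151 UPM (135 to 168) against 5.01 and 2.72. Both libraries thus showed each gene at 10-fold or more of the level in the remaining cells. Wnt4 stood at 41.2 (31.1 to 53.5) and 59.8 UPM (49.8 to 71.1) against 1.28 and 1.26.

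Tgfbi had a UMI in 75.4% of WT and 77.9% of transgenic Itgbl1 Wnt4 Tgfbi cells, Itgbl1 in 44.9% and 70.2%, Fbn2 in 42.03% and 39.7%, and Wnt4 in 34.8% and 40.5%. After each cell was thinned to 5000 UMIs (1 WT and 6 transgenic cells were shallower and were left out), the shares were 14.7% and 22.4% for Wnt4 and 36.8% and 56.8% for Itgbl1. In other Pdgfra-positive cells Tgfbi was found in 17.8% and 12.1% and Wnt4 in 2.53% and 2.47%. Endothelial cells of the same libraries showed a Wnt4 UMI in 1.08% and 0% and a Tgfbi UMI in 5.38% and 8%. They were shallower, with medians of 9882 and 7989 UMIs, so these shares were not read at equal depth. All 4 markers were found together in 3 of 69 WT and 21 of 131 transgenic cells, and a single marker in 23 and 34. A few cells held much of the signal in WT, where 5 cells carried 50.2% of the Itgbl1 UMIs and 60.9% of the Fbn2 UMIs. In the transgenic library 5 cells carried 18.6% and 42.2%. Correlations between pairs of markers over all 2483 cells were weak to moderate (Pearson's r from 0.16 for Fbn2 with Wnt4 to 0.41 for Itgbl1 with Tgfbi), and they share each cell's depth.

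Scores of these cells had a median of 1.54 and reached 6.44. The lowest score inside the group was 0.505 and the highest outside it, among cells with this score on top, was 0.499. Within 0.1 of the threshold lay 9 cells inside and 11 outside, and 85 further cells reached 0.5 on this score but scored higher on another. The runner-up score was that of the Ptn Ackr4 set in 83 of the 200 cells and that of the F3 set in 65, so most of these cells scored next highest on 1 of these 2 sets.

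**Figure D1:**
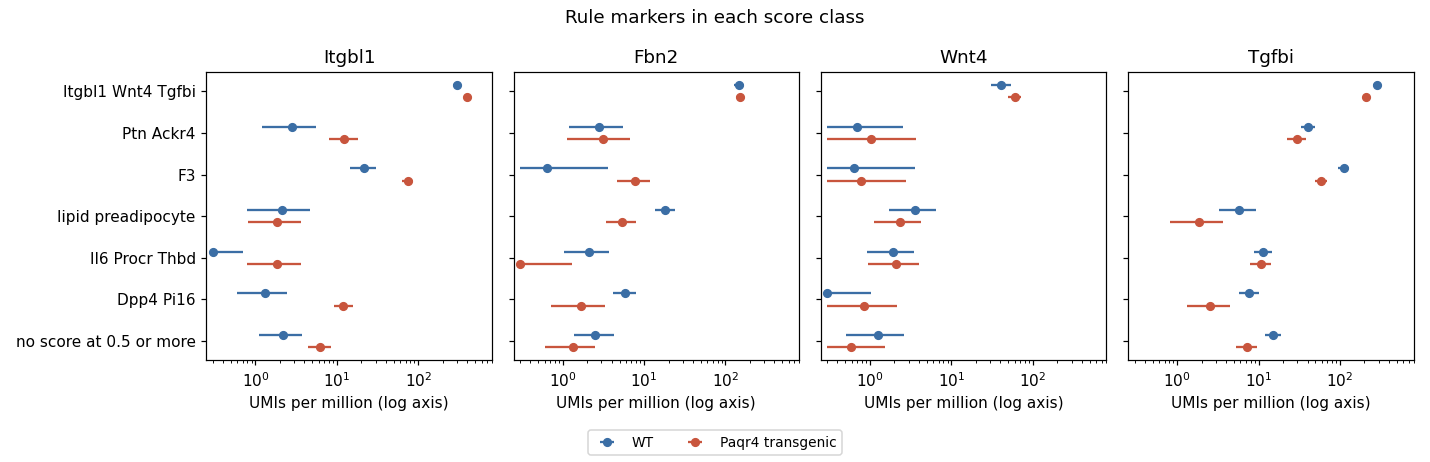
Levels of the 4 rule markers in each score class, in UPM on a log axis (left edge of the axis for values under 0.3), with exact Poisson 95% intervals; blue is WT and red is Paqr4 transgenic. Each marker is highest in the Itgbl1 Wnt4 Tgfbi class, as the rule required, and the next highest levels of Itgbl1 and Tgfbi are in the F3 class, where Tgfbi is at 111 UPM in WT and 59.0 UPM in the transgenic library.

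Each marker was also read in cells that had been chosen without it, by the same rule on the mean of the other 3. This reading of a marker did not use its own values. The 4 markers were put together with earlier results of these data known, so the reading is a description and gives no independent support. Wnt4 stood at 21.8 UPM in the 88 WT cells so chosen against 2.04 UPM in the rest, and at 37.1 UPM in 153 transgenic cells against 2.60 UPM. Itgbl1 stood at 95.9 UPM in 82 WT cells against 12.7 UPM, and at 247 UPM in 113 transgenic cells against 29.0 UPM. Tgfbi was 7.21-fold higher in 65 WT cells and 9.68-fold higher in 134 transgenic cells than in the rest. Fbn2 differed between the libraries in this reading, at 20.04 UPM in 74 WT cells against 11.97 UPM (log2 ratio 0.74, interval 0.15 to 1.29) and at 103 UPM in 152 transgenic cells against 5.40 UPM (log2 ratio 4.25, interval 3.94 to 4.57). Itgbl1, Wnt4 and Tgfbi were thus each higher in both libraries in cells chosen by the other 3 markers, but many of those cells lacked them. Wnt4 had a UMI in 18.2% (WT) and 28.8% (transgenic) of the cells so chosen, Itgbl1 in 23.2% and 48.7%, and Tgfbi in 49.2% and 62.7%. Fbn2 was higher to a much greater extent in the transgenic library than in WT, and the difference between the libraries was not tested.

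Clustering of all 2483 cells with the 24 rule markers and Pdgfra left out placed 113 of the 200 cells in 1 compact cluster of 145 cells, 37 of them WT and 108 transgenic. The cluster was made of these cells to 77.9%, and it reappeared at lower and higher clustering resolution with 112 and 115 of them. It held 26 of the 69 WT cells (37.7%) and 87 of the 131 transgenic cells (66.4%). The other 43 WT and 44 transgenic cells were scattered through clusters made mostly of other cells, with 39 of them in 1 cluster of 482 cells. Among nearest neighbours in this space, 35.7% on average of those of WT Itgbl1 Wnt4 Tgfbi cells were also such cells, against 3.03% for other WT cells, and the transgenic values were 61.9% and 4.01%. The rule thus gathered a compact group and a scattered remainder in different proportions in the 2 libraries, and levels are given below for both where they differ.

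**Figure D2:**
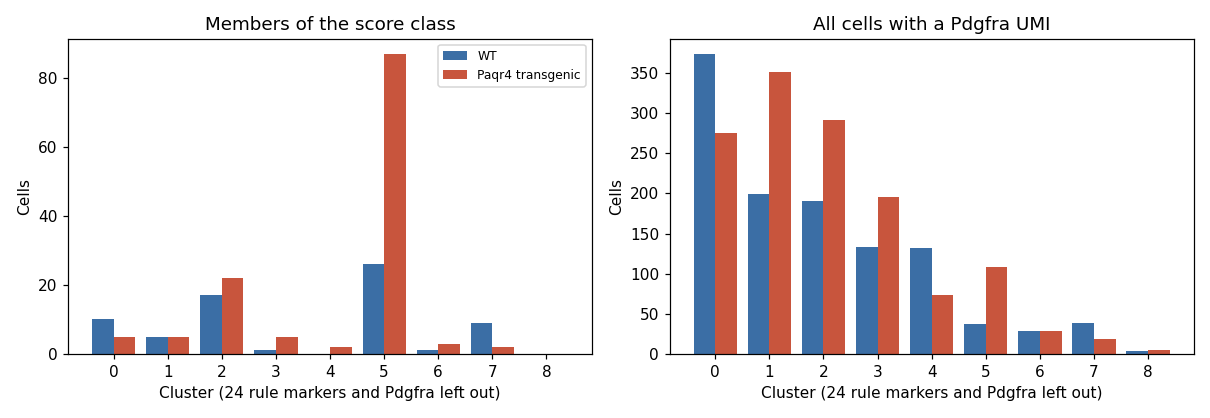
Number of Itgbl1 Wnt4 Tgfbi cells (left) and of all Pdgfra-positive cells (right) in each cluster made without the rule markers, for WT (blue) and Paqr4 transgenic (red). Cluster 5 holds 26 WT and 87 transgenic Itgbl1 Wnt4 Tgfbi cells, and cluster 2 holds the next largest number, 17 and 22.

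Inside the cluster the markers behaved unequally. Wnt4 stood at 76.8 UPM (WT) and 84.9 UPM (transgenic) in cells inside it, against 16.2 and 9.84 UPM in those outside it, and Tgfbi at 420.0 and 267 against 190.0 and 92.8 UPM. Itgbl1 was as high outside the cluster, at 319.9 and 423 UPM, as inside it, at 264 and 391 UPM. Fbn2 stood at 50.04 UPM inside and 217 UPM outside in WT, and at 190.2 and 71.7 UPM in the transgenic library. Wnt4 and Tgfbi were thus higher inside the cluster than outside it in both libraries, and Fbn2 in the transgenic library but not in WT. Cells inside and outside the cluster had all been chosen on these same markers, and many lacked some of them. A cell outside the cluster therefore had to be high in at least some marker. The levels are descriptions, and whether a marker belongs to the compact group was not tested.

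Beyond the rule markers, Nkain3, Gabrb1, Clu, Flt1 and Ank3 lay highest against other cells in the lower of the 2 libraries. A gene was counted as different when it lay 2-fold or more from the other Pdgfra-positive cells in both libraries; among 3560 genes at 50 UPM or more in these or the other cells of each library, 66 were higher (1.85%) and 67 lower (1.88%). For the cells inside the cluster alone 102 were higher (2.87%) and 156 lower (4.38%). Because the same cells were chosen on their expression, these numbers describe the group and support nothing. Piezo2, a mechanically gated cation channel, stood at 372 UPM (WT) and 387 UPM (transgenic) in Itgbl1 Wnt4 Tgfbi cells against 63.5 and 54.1 UPM in other cells, log2 ratios of 2.55 (2.40 to 2.70) and 2.84 (2.71 to 2.97). It had a UMI in 100.0% of WT and 93.1% of transgenic cells inside the cluster, where it reached 795 and 514 UPM, and 76.2 and 134 UPM outside it. Endothelial cells held Piezo2 too, at 481 and 223 UPM.

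Ank3, which encodes the scaffold ankyrin-G that anchors channels and adhesion proteins to the spectrin skeleton, stood at 110.3 and 299 UPM against 17.1 and 18.8, log2 ratios of 2.69 (2.41 to 2.96) and 3.99 (3.81 to 4.16). Inside the cluster it reached 250.2 and 438 UPM, and outside it 12.5 and 22.5 UPM, close to the other cells. Nkain3, whose protein interacts with the sodium pump, stood at 256 and 156 UPM inside the cluster against 7.02 and 2.84 UPM in other cells, and was found in 57.7% and 29.9% of cells there. Cacna1c, the pore of an L-type calcium channel, stood at 80.9 and 167 UPM against 16.8 and 26.5. Gabrb1, a GABA-A receptor subunit, stood at 55.9 and 87.04 UPM against 5.61 and 7.39, but 5 cells held 71.1% of its WT and 92.4% of its transgenic UMIs.

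Flt1, the receptor 1 for vascular endothelial growth factor, stood at 61.04 and 79.04 UPM against 6.09 and 11.6 in other cells. It lay almost wholly inside the cluster, at 143 and 119 UPM, with 3.75 UPM outside it in WT and 0 UMIs in the transgenic library, and had a UMI in 26.9% and 43.7% of the cells inside it. Flt1 was the 1 gene of 10 blood endothelial markers at 10 UPM or more in both libraries. Cdh5, which defines endothelial cells, had 0 and 0 UMIs in Itgbl1 Wnt4 Tgfbi cells, against 961 and 1102 UPM in endothelial cells, and Emcn had 0 and 1 UMIs. Pecam1 stood at 11.8 and 9.88 UPM against 1678 and 1347 UPM in endothelial cells, which were chosen on Pecam1 and Cdh5. Free RNA carried Flt1 at 48.5 and 42.96 UPM, and its part in the Flt1 level was not tested.

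Of the remaining genes at the top of the contrast, the zinc finger gene Zfp385b stood at 186 and 277 UPM against 30.1 and 36.4, and Clu, the extracellular chaperone clusterin, at 68.4 and 82.8 against 8.46 and 10.7. Cobll1 stood at 78.7 and 52.2 UPM against 5.57 and 10.6, and Rgs7bp, which tethers a regulator of G-protein signalling to membranes, at 65.5 and 76.7 against 5.41 and 16.2. Rhbdd2, of the rhomboid family, stood at 82.4 and 88.5 UPM against 11.4 and 15.99, and 5 cells held 88.4% of its WT and 74.5% of its transgenic UMIs. Mfap4, a microfibril glycoprotein, is itself a rule marker of the F3 set and stood at 75.01 and 147 UPM against 16.1 and 25.9. For 10 of the 12 genes in the plot of levels inside and outside the cluster, the level inside was at least 1.5-fold that outside in both libraries. The exceptions were Clu and Mfap4, in 1 library each. Except for Mfap4, these genes were not left out of the clustering. Higher levels inside the cluster were therefore favoured by how it was made, and these values are descriptions.

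**Figure D3:**
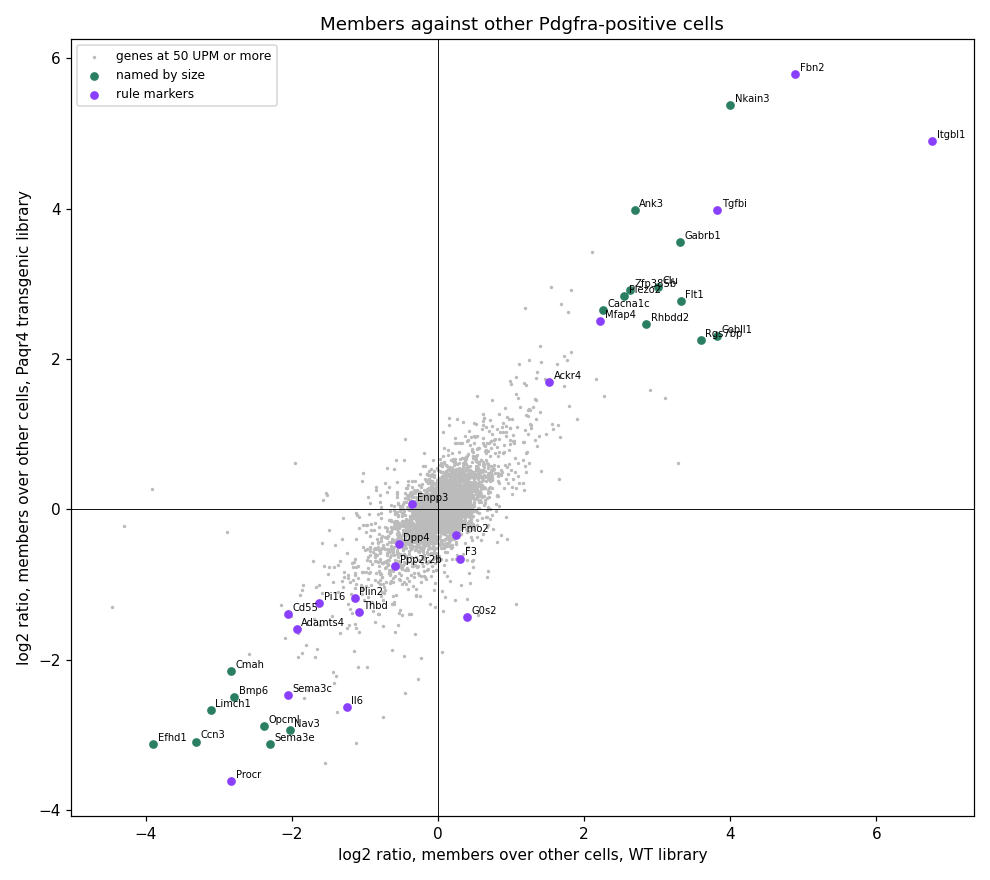
Each point is a gene at 50 UPM or more, placed by its log2 ratio of Itgbl1 Wnt4 Tgfbi cells over all other Pdgfra-positive cells in the WT (x axis) and the Paqr4 transgenic library (y axis); purple marks rule markers and green the genes named by the size of both ratios. Itgbl1 (6.77, 4.90) and Fbn2 (4.89, 5.79) lie farthest out, with Nkain3 (4.003, 5.38) the next gene that the rule did not use; Wnt4 is not drawn because it stood under 50 UPM in WT.

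**Figure D4:**
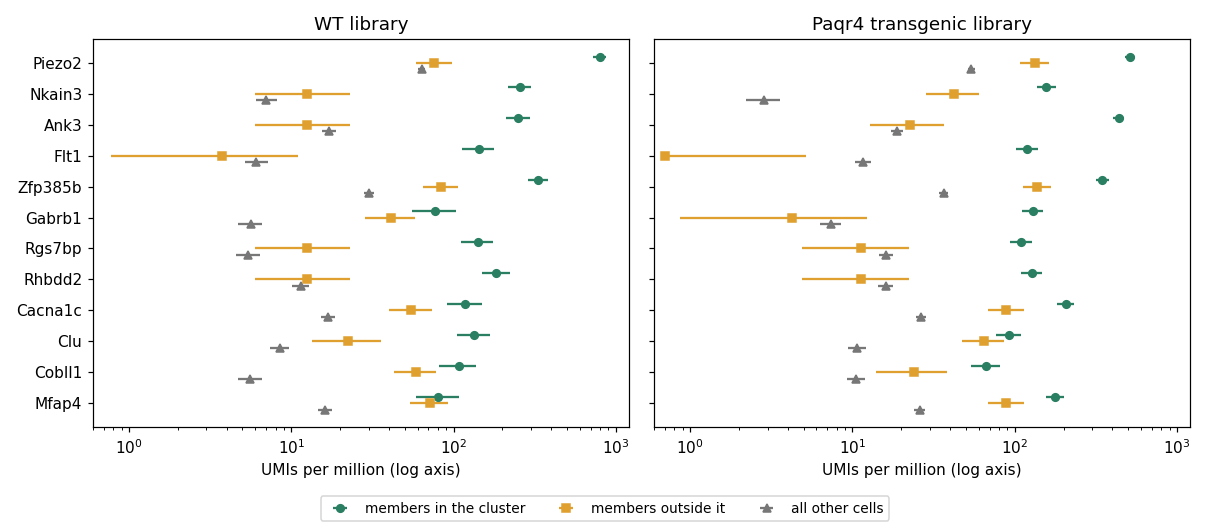
Levels in UPM (log axis) of 12 genes in Itgbl1 Wnt4 Tgfbi cells inside the cluster (green circles), in those outside it (orange squares) and in all other Pdgfra-positive cells (grey triangles), with exact Poisson 95% intervals; the square at the left edge for Flt1 stands for 0 UMIs. Flt1, at 143 and 119 UPM inside against 3.75 and 0 UPM outside, and Ank3, at 250.2 and 438 against 12.5 and 22.5 UPM, lay mostly inside the cluster. Neither gene was left out of the clustering.

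Genes low in these cells included adhesion and guidance genes and markers of other progenitors. Opcml, a neural adhesion molecule, stood at 183 and 52.7 UPM against 951 and 388 in other cells. Sema3c, a secreted guidance ligand and a rule marker of the Dpp4 set, stood at 121 and 71.5 against 501 and 396, and Sema3e at 16.9 and 9.88 against 83.5 and 86.3. These guidance genes were lower by log2 ratios of -2.05 and -2.47 for Sema3c and -2.30 and -3.13 for Sema3e. Limch1, an actomyosin regulator, had 1 UMI inside the cluster in each library and stood at 36.2 and 71.7 UPM outside it, against 189.9 and 156 in other cells. Bmp6, a bone morphogenetic protein, had 0 UMIs inside the cluster in both libraries, against 60.99 and 63.6 UPM in other cells. Efhd1, Ccn3, Cmah, Nav3 and Procr completed the 10 lowest, with log2 ratios from -3.89 (Efhd1 in WT) to -2.03 (Nav3 in WT). The other cells include the Dpp4 Pi16 class, which held Sema3e at 224 and 367 UPM and Limch1 at 542 and 582. Sema3e stood at 17.4 and 13.5 UPM in F3 cells, and Limch1 at 22.9 and 14.9 UPM in lipid preadipocytes. Opcml, Sema3c, Sema3e, Limch1, Cmah and Nav3 were lower in F3 cells or lipid preadipocytes than in this group in at least 1 library. Efhd1, Ccn3, Procr and Bmp6 were lowest in this group among all classes in both libraries.

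Wnt pathway genes were read from fixed lists at 10 UPM or more in each library. At that floor 192 of all 8721 genes were higher (2.2%) and 137 lower (1.57%). Over all 8721 genes the median log2 ratios were 0.09 in WT and 0.02 in the transgenic library. Of 5 Wnt ligands measured at this level, Wnt4 and Wnt9a were higher and none lower, with list medians of 0.77 and 0.38. Wnt4 is a rule marker of these cells, so the choice of cells set its direction, and it is part of the medians. Wnt9a stood at 14.7 and 23.1 UPM against 6.05 and 10.9. Wnt6, which did not reach 10 UPM in WT and so was not counted, stood at 8.83 and 12.2 UPM against 0.401 and 1.01, while Wnt11 stood at 17.7 and 15.1 against 28.1 and 27.1. Wnt11 was thus within 2-fold of the other cells.

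Of 10 Wnt receptors 2 were higher and 0 lower. Ror1, a co-receptor for non-canonical Wnt signals, stood at 621 and 728 UPM against 258 and 336, and Fzd2 at 50.01 and 58.3 against 23.3 and 20.8. Of 7 secreted modulators, Dkk3, Rspo1 and Sfrp4 were higher and Dkk2 lower; Sfrp4 did not pass 2-fold inside the cluster. Dkk3 stood at 40.4 and 31.99 UPM against 10.7 and 6.899, and Rspo1, an enhancer of Wnt signalling, at 66.9 and 57.9 against 30.8 and 22.6. Of 10 Wnt targets and feedback genes only Nkd2, an inhibitor induced by the pathway, was 2-fold higher in both libraries. Axin2, a common readout of canonical Wnt signalling, stood at 27.9 and 44.7 UPM against 14.1 and 12.99, log2 ratios of 0.99 (0.46 to 1.47) and 1.78 (1.44 to 2.12). Inside the cluster 3 of the 10 targets were higher (Axin2, Nkd2 and Twist1) and Dact1 lower, with Axin2 at 48.3 and 56.6 UPM, beside 287 higher (3.29%) and 319 lower (3.66%) of all 8721 genes for cells inside the cluster.

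TGF-beta family genes were mixed. Of 9 ligands Tgfb3, Inhbb and Bmp4 were higher and Bmp6 lower. Tgfb3 stood at 53.7 and 55.5 UPM against 23.4 and 26.7, and Bmp4 at 47.8 and 42.3 against 15.5 and 17.7; Bmp4 lay mostly outside the cluster in WT, at 73.7 UPM against 10.7 inside it. None of 10 receptors passed 2-fold in both libraries, and their median log2 ratios were 0.18 and -0.02. Among 14 TGF-beta targets, Tgfbi, Cilp and Lox were higher and Fn1 and Thbs1 lower. Tgfbi is a rule marker of these cells, so the choice of cells set its direction. Cilp, a matrix protein that binds TGF-beta, stood at 192 and 209.8 UPM against 22.3 and 75, and Fn1, fibronectin, at 517 and 368 against 1941 and 1435. Targets of the pathway outside the rule thus lay on both sides. The inhibitor Fst, follistatin, was the 1 of 16 inhibitor and latency genes that was lower in both libraries, at 87.5 and 27.3 UPM against 235 and 135.

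Matrix genes lay on both sides. Of 23 elastic fibre and microfibril genes, Eln, Lox and the rule markers Fbn2 and Mfap4 were higher and Efemp1 and Adamtsl3 lower, with median log2 ratios of 0.16 and 0.23. Inside the cluster 5 were higher and 4 lower. Eln, elastin itself, stood at 782 and 986 UPM against 345 and 309, and Lox, which cross-links elastin and collagen, at 241 and 296 against 105 and 124. Fbn1, the fibrillin of adult microfibrils, went the other way without reaching 2-fold, at 983 and 1454 against 1872 and 2225. Of 26 collagens 5 were higher and 0 lower: Col4a5 and Col4a6 of basement membrane, Col6a5 and Col6a6 of the collagen VI family, and Col8a2. Inside the cluster 6 collagens were higher and 4 lower (Col4a1, Col4a3, Col4a4 and Col5a3). Col6a5 stood there at 8.94 UPM in WT, below the 18.5 UPM of other WT cells, and at 239 UPM in the transgenic library. Col6a6 stood at 215 and 283 UPM against 61.1 and 66.1, and Col4a6 at 72.8 and 144 against 16.9 and 13.4. Col1a1, the main fibrillar collagen, was higher by less than 2-fold, at 1459.8 and 1452 UPM against 859 and 799. The median log2 ratios of the 26 collagens were 0.24 and 0.41, beside 0.09 and 0.02 for all genes.

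Among 12 integrin genes, Itga8 and the rule marker Itgbl1 were higher and none lower. Itga8, an alpha subunit of a matrix-binding integrin, stood at 53.7 and 33.9 UPM against 7.06 and 3.73. The fibronectin receptor subunit Itga5 stood at 189 and 224 against 448 and 337. Of 25 neural adhesion and guidance genes 6 were higher (among them Unc5c, Cadm1 and Sema5a) and 3 lower (Opcml, Sema3c and Sema3e), so the list was split in direction. Sema5a stood at 192 and 296 UPM against 72.4 and 76.1. Of 24 growth factors and receptors Igf1 and Pdgfa were higher and Igfbp5 and Hgf lower, with Igf1 at 543 and 655 UPM against 270.5 and 207.

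Inflammatory genes were low. Of 22 cytokine, chemokine and NF-kB genes 0 were higher and 10 lower, with median log2 ratios of -1.27 and -1.22, and inside the cluster 12 were lower. Summed over the list, the level was 4410.4 UPM (WT) and 4562 UPM (transgenic) in Itgbl1 Wnt4 Tgfbi cells against 13126 and 9959.9 UPM in other cells. Il6 is a rule marker of another set and so helped to choose the cells; it stood at 174 and 54.6 UPM against 414 and 338. Genes outside the rule included Tnfaip6, a hyaluronan-binding protein of inflammation, at 1188 and 1076 UPM against 5087 and 3542, and the eosinophil chemokine Ccl11 at 311 and 161 against 1106 and 923. Ccl11 was lower still inside the cluster, at 25.02 and 19.8 UPM. Of 25 interferon response genes Ifitm1 was higher and 5 were lower (Ifit1, Irf7, Iigp1, Oasl2 and Rsad2), with medians of -0.30 and -0.77. Ifit1 stood at 10.3 and 7.998 UPM against 68.3 and 41.2. The other cells include the Il6 Procr Thbd class, which was chosen on Il6. Il6 stood at 355 (WT) and 154 UPM (transgenic) in F3 cells and at 221 and 161 UPM in Ptn Ackr4 cells. In lipid preadipocytes it stood at 144 and 153 UPM, below Itgbl1 Wnt4 Tgfbi cells in WT and above them in the transgenic library.

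The label of progenitors was checked against fibroblast and lineage genes. All 12 fibroblast and progenitor identity genes were measured, 0 were higher and Thy1 and Cd44 were lower, with Pdgfra at 574 and 543 UPM against 574 and 525 and Dcn at 13893 and 11667 against 9309.5 and 10212. Ly6a, which encodes the stem cell antigen Sca-1, was found in 82.6% and 68.7% of these cells, and Cd34 in 89.9% and 88.5%. Of 12 adipogenic regulators at 10 UPM or more 1 was lower, Pparg, the master regulator of adipocyte formation and a rule marker of the lipid preadipocyte set, with 11 and 3 UMIs in all. The mature adipocyte gene Fabp4 had 3 and 24 UMIs. The cells thus carried fibroblast markers, but whether they are progenitors cannot be read from these data.

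Markers of neighbouring cell types were summed over their lists. The 8 mesothelial genes summed to 402 and 455 UPM against 509.8 and 379.7, and Wt1, a transcription factor of mesothelium and of some fat progenitors, gave 374 and 455 UPM of this. The 9 perineurial genes summed to 64.7 and 64.5 UPM against 115 and 138. Of 8 endoneurial fibroblast genes 5 reached 10 UPM, and of these Sox9 and Adamtsl3 were lower in both libraries and 0 higher. The median log2 ratios of the 5 were 0.42 and -0.04, and inside the cluster 1 was lower. The 7 epithelial genes summed to 0.735 and 0.470 UPM, and 10 immune genes to 11.03 and 8.94 UPM against 7.498 and 8.48. The 11 pericyte and smooth muscle genes summed to 82.4 and 58.3 UPM against 50.5 and 55.4, with Acta2 at 1 and 4 UMIs. The 11 tendon and fascia genes summed to 2285 and 2889 UPM against 3356 and 3275, of which the immediate early gene Egr1 gave 2261 and 2873 UPM in these cells; Egr1 was within 2-fold of other cells and Fmod, fibromodulin, was higher, at 11.8 and 15.1 UPM against 0.762 and 6.29, with 5 cells holding 93.8% of its WT UMIs.

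The nearest of the other score classes were the F3 and the Ptn Ackr4 cells, with Spearman's rho of 0.889 and 0.882 (mean of both libraries) over genes at 50 UPM or more without the rule markers, followed by the lipid preadipocytes at 0.850. These are descriptions over genes, and the classes share library and chemistry. F3 cells held more Mfap4, a marker of their own set, at 149 (WT) and 162 UPM (transgenic) against 75.01 and 147. They held Piezo2 at 105 and 102 UPM and Ank3 at 18.7 and 20.04 UPM. Cobll1 stood at 18.7 and 31.6 UPM in F3 cells against 78.7 and 52.2, and Gabrb1 at 21.3 and 40.5 against 55.9 and 87.04. Ptn Ackr4 cells held Piezo2 at 177 and 148 UPM. Zfp385b stood at 42.6 and 64.0 UPM in F3 cells and at 26.3 and 57.7 UPM in Ptn Ackr4 cells. Both other classes lay below Itgbl1 Wnt4 Tgfbi cells in Piezo2 (372 and 387 UPM), Ank3 (110.3 and 299) and Zfp385b (186 and 277).

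Itgbl1 Wnt4 Tgfbi cells made up 6.07% (4.76 to 7.62) of Pdgfra-positive cells in the WT library and 9.73% (8.20 to 11.4) in the transgenic library, a ratio of 1.60. The ratio was 1.16 when Itgbl1 was left out of the score, 1.38 when genes were standardised within each library and 1.82 at a score threshold of 1.0, and no setting brought it below 1. Itgbl1 itself was 2.30 log2 units higher in transgenic than in WT cells outside the group, where it stood at 2.73 and 13.4 UPM, and free RNA carried it at 2.41 and 36.9 UPM. The part of this difference in the shares was not tested. Computed the same way, the ratio was 1.63 for the F3 class, 1.41 for the lipid preadipocytes and 0.645 for the Dpp4 Pi16 class. With 1 library per genotype, a difference between the genotypes cannot be told apart from one between the samples.

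Levels within the group were then set side by side for the 2 libraries. Paqr4 stood at 5.88 UPM in WT (8 UMIs) and 7.998 UPM in transgenic cells (17 UMIs), a log2 ratio of 0.44 (-0.85 to 1.86), and at 8.06 and 9.42 UPM in the remaining cells, so an excess of Paqr4 was not detectable at this depth. An eGFP sequence added to the reference had 0 UMIs in the WT and 4 in the transgenic library, and 0 and 0 in WT and transgenic Itgbl1 Wnt4 Tgfbi cells. Among 3847 genes at 50 UPM or more in a library, 71 lay 2-fold or more higher in transgenic cells of the group (1.85%) and 85 lower (2.21%). Because 37.7% of WT and 66.4% of transgenic cells lay inside the cluster, values for cells inside it are given beside those for the whole group; there 136 of the same genes were higher (3.54%) and 80 lower (2.08%).

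Sult1e1, the estrogen sulfotransferase, had 0 UMIs in the 69 WT cells and stood at 187 UPM in transgenic cells, with a UMI in 40.5% of them, which makes it at least 84.9-fold higher against a floor of 3 UMIs (2.21 UPM). In other cells it stood at 3.69 and 81.8 UPM and in free RNA at 0.301 and 67.2 UPM. C7, a complement component, stood at 119 UPM (WT) and 519.9 UPM (transgenic) in cells of the group and at 50.2 and 338 UPM in other cells, so both genes were higher in the transgenic library in and outside the group. Inside the cluster C7 stood at 21.4 and 354 UPM.

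Other genes chosen for their high ratio within the group had smaller ratios outside it, which the choice itself favours, and the contrast was not tested. Slco2a1, a prostaglandin transporter, stood at 11.03 UPM (WT) and 63.99 UPM (transgenic) in cells of the group, against 9.14 and 11.3 UPM in other cells. Ptpru, a receptor tyrosine phosphatase, stood at 13.2 and 52.7 UPM against 4.89 and 6.05. Birc3, an apoptosis inhibitor induced by NF-kB, stood at 113 and 355 UPM against 322 and 313. Inside the cluster the log2 ratios of transgenic over WT were 2.53 for Slco2a1, 1.76 for Ptpru and 1.84 for Birc3, beside 2.54, 1.99 and 1.66 in the whole group. Ramp1, a co-receptor for the neuropeptide CGRP, stood at 22.1 and 110.1 UPM in the group and had a UMI in 23.2% and 65.6% of its cells. Ccl2, the monocyte chemokine, stood at 25.7 and 212 UPM in the group and 565 and 524 UPM outside it, with 5 cells holding 80% and 67.8% of its UMIs in the group and free RNA carrying 656 and 622 UPM. Col6a5 stood at 65.5 and 181 UPM, but 5 cells held 97.8% of its WT UMIs. Nr4a3, an orphan nuclear receptor, stood at 31.6 and 97.4 UPM, and Ahi1, a gene of the primary cilium, at 18.4 and 50.3. Adamts6, a matrix protease, stood at 36.8 and 101 UPM and C77080 at 19.1 and 83.7, and all 4 were higher in the transgenic library inside the cluster too, with log2 ratios from 0.80 (Adamts6) to 2.12 (C77080).

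Among genes lower in transgenic cells, several did not keep the difference inside the cluster. Chrm3, a muscarinic receptor, stood at 344 UPM (WT) and 60.2 UPM (transgenic) in cells of the group, at 10.7 and 9.19 UPM inside the cluster, and at 577 and 162 UPM outside it. Sox6, Robo2, Prlr and Epha4 were lower by log2 ratios of -2.72, -2.60, -2.27 and -2.21 in the whole group but stood at 1.83, 0.86, 0.19 and 0.59 inside the cluster. Fgf10, a growth factor of adipocyte precursors, was lower in both readings, at 66.9 and 2.82 UPM in the group and 24 and 1 UMIs inside the cluster. The protease inhibitor Tfpi2 stood at 82.2 UPM (WT) and 14.8 UPM (transgenic) in cells inside the cluster, and the neural adhesion gene Lsamp at 104 and 26.9. Lifr, the receptor for leukaemia inhibitory factor, stood at 41.1 and 13.4 UPM there, and Igfbp5 at 80.4 and 36.1. Lsamp was lower outside the group too (104 and 16.4 UPM), whereas Fgf10, Lifr and Tfpi2 were within 2-fold there. Ces1d, a carboxylesterase that acts on lipids, stood at 105 and 11.8 UPM in the group. Ctrb1, a digestive enzyme gene, stood at 71.3 and 10.8 UPM in the group and at 8911 and 6276 UPM in free RNA, which is more than in the cells themselves.

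**Figure D5:**
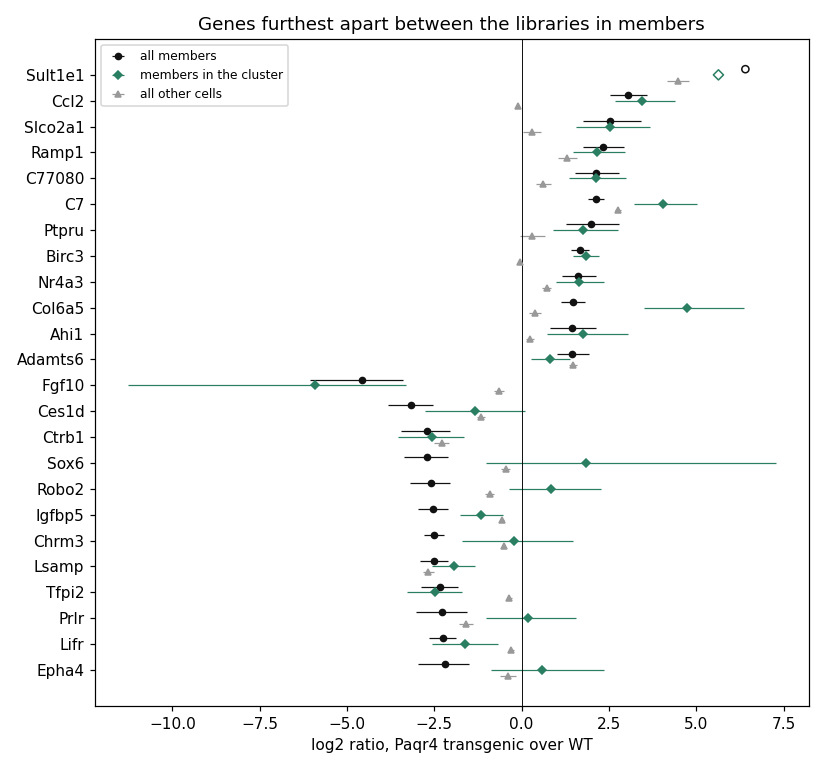
Log2 ratio of Paqr4 transgenic over WT for the 12 highest and 12 lowest genes of Itgbl1 Wnt4 Tgfbi cells, over all of them (black circles), over those inside the cluster (green diamonds) and over all other Pdgfra-positive cells (grey triangles), with exact 95% intervals for counting error; open symbols are bounds set by 0 UMIs in WT. Slco2a1 (2.54 over all, 2.53 inside the cluster, 0.31 in other cells) keeps its ratio inside the cluster, and Sox6 (-2.72, 1.83, -0.45) does not.

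The listed genes gave few shared shifts between the libraries at 10 UPM or more, where 286 of 9365 genes were 2-fold higher in transgenic cells of the group (3.05%) and 400 lower (4.27%), with a median log2 ratio of 0.01; inside the cluster 765 were higher (8.17%) and 472 lower (5.04%). Of 22 cytokine, chemokine and NF-kB genes Ccl2 and Cxcl2 were higher and 8 lower, with a median of -0.19. Of 27 neural adhesion genes 0 were higher and 7 lower, with a median of -0.54 against -0.09 in other cells. Opcml stood at 183 and 52.7 UPM and Lsamp at 189 and 33.4, and both were lower in the transgenic library outside the group too. In F3 cells Opcml stood at 746 (WT) and 283 UPM (transgenic), and in Ptn Ackr4 cells at 1000 and 471 UPM. Robo2 of the same list was lower in the whole group but not inside the cluster. Of 26 growth factors and receptors Pdgfc was higher and 6 lower. Of 21 genes of cholesterol and fatty acid synthesis 0 passed 2-fold in the group, and of 20 in the ceramide and PAQR list 0, with medians of -0.06 and 0.14 beside 0.68 and 0.17 in other cells. Among the 11 Wnt targets and feedback genes Nkd1 and Apcdd1 were lower, and among 26 collagens Col6a5 was higher and Col5a3 and Col23a1 lower.

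Haemoglobin differed between the libraries in these cells. The 6 erythroid genes summed to 1965.8 UPM (WT) and 7699.7 UPM (transgenic) in Itgbl1 Wnt4 Tgfbi cells, against 7154 and 5768 UPM in other cells. In the transgenic library 5 cells held 94.5% of the Hbb-bs UMIs of the group, and inside the cluster the sums were 668 and 505 UPM. Free RNA carried Hbb-bs at 160955 and 138844 UPM, and its part in other differences of the group was not tested.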

How the data were processed

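The deposited files hold counts, as raw UMIs per gene and barcode for all barcodes, with no normalization by the authors. They were made with Cell Ranger 7.0.0 on mm10, per the submitters' processing notes; per the file headers the matrix version was Cell Ranger 4, and the difference could not be settled. Libraries were droplet 3′ libraries of CD45- cells, per the labels' protocols. Deposited barcodes and gene symbols were used as given, and 78 features that share a symbol were summed, leaving 32246 symbols.

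Barcodes with at least 1000 UMIs, at least 500 genes, at most 10% mitochondrial UMIs and at least 1 Pdgfra UMI were kept. Counts per 10000 UMIs were log-transformed and standardised over these cells, both libraries pooled, for the 6 scores of 4 markers. UMIs were then summed over the chosen and the other cells of each library. A gene with 0 UMIs was set to 3 UMIs for a bound on its ratio. Cells were clustered by the Leiden method (2000 variable genes, 30 principal components, 15 neighbours, resolution 0.5, seed 1) without the 24 rule markers and Pdgfra; this clustering, and every value for cells inside the cluster, was added after seeing the data. Scrublet called 1 of 1329 WT and 4 of 1525 transgenic cells as doublets, 0 of them Itgbl1 Wnt4 Tgfbi cells; with so few calls the caller cannot be relied on. Endothelial cells were those that passed the same filters with 0 Pdgfra UMIs and at least 1 UMI each of Pecam1 and Cdh5.

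The cells and the gene lists were chosen with earlier results of these data known. Genes were named as rule markers, as the 15 highest and 10 lowest against other cells, as the 12 highest and 12 lowest between libraries, and as up to 4 per list with the largest ratios; other list genes were chosen after their values were seen. Ratios were tested on simulated counts with counting error only, and the choice of cells on cells given UMIs of all 4 markers. In the data 3 of 69 WT and 21 of 131 transgenic cells held all 4, and a few cells often held most UMIs of a gene. The simulations therefore do not show how the rule and the intervals perform on such cells. Alternatives changed the score threshold, each marker, the filters, depth, floor and weights. Python 3.11.15, numpy 2.4.6, scipy 1.17.1, pandas 2.3.3, scanpy 1.11.5 and leidenalg 0.10.2 were used.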

Additional observations from a re-analysis of the deposited data

Results flagged for a closer look

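Ccl2, the monocyte chemokine, was higher in transgenic than in WT Itgbl1 Wnt4 Tgfbi cells by a log2 ratio of 3.04 (3.46 inside the cluster), while in the other Pdgfra-positive cells the ratio was -0.11 (565 and 524 UPM). In the group 5 cells held 80% of its WT and 67.8% of its transgenic UMIs, and free RNA carried it at 656 and 622 UPM, above the level in the group. Cobll1, a gene high in these cells, was lower in transgenic than in WT Itgbl1 Wnt4 Tgfbi cells, with a log2 ratio of -0.59 (-0.69 inside the cluster), and higher in the transgenic library in other cells, with 0.92. With 1 library per genotype these differences were not tested.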

How the results depend on the processing

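No paired analysis was possible because each genotype had 1 library. The WT share of Itgbl1 Wnt4 Tgfbi cells was 4.05% at a score threshold of 1.0 and 7.75% without Wnt4 in the score; the transgenic share was 7.35% at that threshold and 8.02% when the score had to lead the next by 0.25. Genes 2-fold higher than in other cells numbered 35 after thinning to 5000 UMIs, 192 at a floor of 10 UPM, 28 at 100 UPM and 123 for cells inside the cluster, and genes lower 44 (thinned), 137 (10 UPM), 154 (cluster) and 42 without Wnt4. The cluster counts here apply the floor to the cells inside it, whereas those given earlier keep the genes tested for the whole group. Between libraries, genes higher in transgenic cells numbered 224 (thinned), 286 (10 UPM), 34 (100 UPM) and 146 (cluster), and genes lower 197 (thinned), 400 (10 UPM), 42 (100 UPM) and 54 without Fbn2. Of 73 named genes against other cells 0 reversed, but 45 stayed 2-fold after thinning, where 52 moved beyond counting error, and 57 to 61 with a marker left out. Opposite directions in the libraries, or no ratio in 1 of them, were found for Col6a5 at thresholds 0.75 and 1.0, after thinning, without Fbn2 and inside the cluster, for Col8a2, Cthrc1, Fzd2, Rsad2, Unc5c and Wnt6 after thinning, for Cxcl14 without Tgfbi and for Runx2 inside the cluster. Of 70 named between libraries, 39 stayed 2-fold inside the cluster, 8 gave no ratio and 11 reversed: Sox6 1.83, Robo2 0.86, Prlr 0.19, Epha4 0.59, Apoe 0.23, Aspn -0.78, Meox1 -0.34, Hbb-bs -0.47, Hbb-bt -0.31, Hba-a1 -0.29 and Hba-a2 -0.34 (log2). Thinning reversed Hbb-bs (-1.83), Hbb-bt (-2.43), Hba-a1 (-2.34), Hba-a2 (-2.70), Gdf6 (-0.30) and Bmp2 (1.13), equal weight per cell reversed Hba-a1 (-0.071) and Hba-a2 (-0.12), and leaving out Fbn2 reversed Cebpa (0.030). The cause of these reversals was not tested. Low counts limit genes near the floor of 2.21 UPM in WT and 1.41 UPM in transgenic cells.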

Other observations

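Complement, Hox, stress and other listed genes were also compared between Itgbl1 Wnt4 Tgfbi cells and the rest at 10 UPM or more. At this level 192 of all 8721 genes were 2-fold higher in both libraries (2.2%) and 137 lower (1.57%). Lists this short would hold few such genes at that share, so the counts describe the lists only. Of 10 complement genes at 10 UPM or more only Cd55, a complement inhibitor and a rule marker of the Dpp4 set, was 2-fold lower in both libraries, and 0 were higher. Of 12 Hox genes, which record position along the body axis, 0 passed 2-fold in both libraries, with median log2 ratios of 0.47 in WT and 0.35 in the transgenic library. Of 15 immediate early genes, which tissue dissociation is known to induce, 0 passed 2-fold in both libraries, with a median of -0.24 in WT. Of 26 proteases and inhibitors Mmp16, a membrane-bound metalloproteinase, was higher, at 91.9 and 81.9 UPM against 37.1 and 31.9, and Adamts16 was lower, at 2.21 and 3.29 against 45.99 and 36.8. Of 31 fibroblast transcription factors 0 were higher and Sox9 and Pparg were lower. No explanation of these values was tested.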
